A study of Mus musculus with 8 samples.

Results

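The cells described here were non-cycling, radial-glia-like cells of the mouse dentate gyrus in which at least 2 of the genes Fbln5, St6galnac5, Islr and Wls were detected. They came from a droplet RNA-sequencing series (10x) of 8 libraries and 26036 barcodes, of which 24376 had over 500 genes and under 10% mitochondrial UMIs (unique molecular identifiers, which count captured RNA molecules). A gate then kept cells with at least 3 of the 5 astroglial genes Aldoc, Slc1a3, Slc1a2, Gja1 and Ntsr2, less than 0.1% of UMIs from the mature astrocyte genes S100b, Aqp4, Gjb6, Grin2c and Hsd11b1, at most 1 of 7 markers of other lineages and at most 2 of 10 cell cycle genes. It left 4028 cells. Of these, 607 had at least 2 of the 4 genes and are called members, 1345 had exactly 1 gene, and 2076 had none and served as the comparison within each experiment.

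All mice carried Nestin-GFP, which drives green fluorescent protein from Nestin regulatory sequence, together with Ki67-creERT2, in which the promoter of the proliferation gene Ki67 drives a tamoxifen-dependent recombinase, and a tdTomato reporter that recombination switches on. They were heterozygous, on a mixed C57BL/6J and CD1 background, received tamoxifen for 6 days and were killed on day 8. Several males and females were pooled per experiment, the dentate gyrus was dissected, and cells were sorted by flow cytometry. The first 2-month experiment was sequenced as 2 libraries, one labeled GFP+tdTomato+ and GFP-tdTomato- (1 member and 43 cells with none) and one labeled GFP+tdTomato- (37 members and 299 cells with none). The labels of all other libraries name GFP+ cells with and without tdTomato. There was 1 experiment with 1-month-old mice, 3 with 2-month-old mice (the first in 2 libraries, summed here) and 3 with mice that the sample labels give as 6 months and the series text as 6-8 months of age. Experiments at 2 months used V2 chemistry and the others V3, so that age and chemistry cannot be told apart for 2 months. There was no untreated group, so every cell came from a mouse that carried all these alleles and received tamoxifen.

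Neural stem cells of the dentate gyrus are radial glia-like astroglia that mostly rest in quiescence and give rise to granule neurons through cycling progenitors. They share much of their expression with astrocytes, and express Hopx, Thrsp and Vim at levels that differ from those of mature astrocytes. Quiescent stem cells are known for low protein synthesis, high lysosomal activity and strong contacts with their niche. Fbln5 encodes fibulin 5, a secreted glycoprotein of elastic fibers. St6galnac5 encodes a sialyltransferase that builds gangliosides, Islr (also called meflin) encodes a surface protein with leucine-rich repeats, and Wls encodes the carrier that brings Wnt proteins to the cell surface.

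On the GRCm38 build and the GENCODE annotation, Fbln5 (ENSMUSG00000021186) lies on the minus strand at chr12:101746565-101819055, and Islr (ENSMUSG00000037206) on the minus strand at chr9:58156268-58204306. St6galnac5 (ENSMUSG00000039037) lies on the minus strand at chr3:152817081-152982246, and Wls (ENSMUSG00000028173) on the plus strand of the same chromosome at chr3:159839672-159938664. The reads were counted per gene, so that no exon or isoform can be named.

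Membership differed widely in number between experiments. There were 212 members at 1 month, 38, 4 and 5 in the experiments at 2 months, and 67, 70 and 211 in those at 6-8 months. The cells with none of the genes numbered 421 at 1 month, 342, 225 and 129 at 2 months, and 59, 356 and 544 at 6-8 months. Members were thus scarce at 2 months, where the second experiment fell under the minimum of 5 cells and entered no fit across genes. The libraries' median UMIs per barcode ran from 1960 to 2921 in the 4 libraries at 2 months, were 6459 at 1 month, and were 4735, 6139 and 7637 at 6-8 months, with 4861883 to 43826338 UMIs in all per library. Since detection of a gene needs depth, each share of cells below is also read against depth. Of the barcode sequences, 59 occurred in more than 1 library, among them 1 member and 4 cells with none of the genes.

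Over all experiments pooled, Islr and St6galnac5 carried the rule, and Fbln5, after which the cells had been named, was a minority gene. Among the 607 members, Islr was detected in 517 (85.2%), St6galnac5 in 494 (81.4%), Wls in 198 (32.6%) and Fbln5 in 196 (32.3%). The pair St6galnac5 and Islr alone made up 282 members (46.5%). At least 3 of the genes were detected in 163 members (26.9%) and all 4 in 28 (4.61%), 24 of these from the third experiment at 6-8 months. The members were chosen by the detection of these 4 genes, so that these values are given as a description, without a test.

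The combinations differed between ages. Fbln5 was detected in 29 of 212 members (13.7%) at 1 month. At 2 months it was detected in 4 of 38, 0 of 4 and 1 of 5 members, and at 6-8 months in 20 of 67 (29.9%), 25 of 70 (35.7%) and 117 of 211 (55.5%). All 3 experiments at 6-8 months thus lay above the experiment at 1 month, with median depths on both sides of it. The pair St6galnac5 and Islr without the other genes made up 155 of 212 members (73.1%) at 1 month, and 27 of 67 (40.3%), 24 of 70 (34.3%) and 45 of 211 (21.3%) at 6-8 months.

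Many of the gated cells with none of the genes were cells of the oligodendrocyte lineage, which bears on every comparison. Oligodendrocyte precursor cells (OPCs), which the gate does not fully remove, express Olig1, Olig2, Pdgfra, Sox10 and other genes of a list of 12 markers. At least 3 of them were detected in 1101 of 2076 cells with none of the genes (53.0%) and in 45 of 607 members (7.41%). The number of markers fell into separate ranges: 562 members had 0 to 2 of them and 40 had 9 or more. Among the cells with none of the genes, those with at least 3 markers made up 36.8% at 1 month, 6.67% to 31.8% at 2 months, and 35.6%, 89.0% and 94.9% at 6-8 months. The summed level of the 12 markers was 263 CPM (UMI counts scaled to a common total per group and experiment) in members and 5308 CPM in cells with none of the genes at 1 month, and 2472 against 14494 CPM in the third experiment at 6-8 months. Results are therefore given first for cells with under 3 OPC markers, a limit chosen after the data were seen, and beside them for all gated cells.

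Under that limit there were 562 members and 975 cells with none of the genes. Members numbered 208 at 1 month, 38, 4 and 5 at 2 months, and 67, 61 and 179 at 6-8 months, against 266, then 306, 210 and 88, and then 38, 39 and 28 cells with none. The summed OPC marker level was then 85.3 CPM in members and 117 CPM in cells with none at 1 month. At 6-8 months it was 118, 149 and 128 CPM in members and 223, 107 and 225 CPM in cells with none. Members were also deeper in 6 of 7 experiments, with a median of 5794 against 5192 UMIs at 1 month, 2952 against 2373, 1923 against 1257 and 1928 against 2010 UMIs at 2 months, and 3830 against 3042, 5756 against 4798 and 6642 against 4023 UMIs at 6-8 months.

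The 4 genes were read in the other cell types of the same libraries as a measure of background. The 1510 astrocyte-like cells with under 3 OPC markers met the gate except for its limit on S100b and the other mature astrocyte genes, which they exceeded. The gate's limit on cell cycle genes was not applied to them. Among these cells, Fbln5 was detected in 2.98%, Islr in 6.03%, Wls in 9.40% and St6galnac5 in 29.8%, at a median of 2260 UMIs. Among 6221 oligodendrocyte-like cells at a median of 4304 UMIs, Fbln5, Islr and St6galnac5 were detected in 0.321%, 0.273% and 0.498%. Fbln5 and Islr were each detected in 0 of 640 microglia-like cells, which does not limit the share of cells that express them. Wls behaved differently: it was detected in 23% of oligodendrocyte-like cells and 19.2% of microglia-like cells, and in 29.4% of gated cells with at least 3 OPC markers. In the 2366 gated cells with under 3 OPC markers the shares were 8.62% for Fbln5, 34.8% for St6galnac5, 38.0% for Islr and 8.54% for Wls. These shares pool experiments that hold the cell types in different numbers. Within experiments, Wls in these cells was at 3.53% at 1 month, 4.28%, 2.21% and 3.28% at 2 months, and 22.7%, 18.5% and 29.5% at 6-8 months, against 5%, then 6.60%, 6.73% and 10.6%, and then 22.8%, 22.3% and 20.5% in astrocyte-like cells. At 6-8 months it was thus near or below the level of astrocyte-like cells in the first and second experiments and above it in the third. It was below the level of oligodendrocyte-like cells in each experiment. Islr, at 53.0%, then 14.7%, 8.82% and 12.3%, and then 50.4%, 44.5% and 66.8%, was above the 11.1%, then 2.03%, 1.44% and 2.13%, and then 22.8%, 13.6% and 18.9% of astrocyte-like cells in each experiment.

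At least 2 of the genes were detected in 102 astrocyte-like cells (6.75%), 45 gated cells with at least 3 OPC markers (2.71%), 26 oligodendrocyte-like cells (0.418%) and 1 microglia-like cell (0.156%). Of the 1510 astrocyte-like cells, 788, 208 and 47 came from the experiments at 2 months. Within experiments, at least 2 genes were detected in 7.78% of them at 1 month, 2.79%, 0% and 2.13% at 2 months, and 19.3%, 17.5% and 28.3% at 6-8 months, and in gated cells under 3 OPC markers in 23.7%, then 7.06%, 1.47% and 4.10%, and then 47.5%, 41.8% and 66.8%. These genes chose the members, so that this is a description, and the depths of the groups differed.

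**Figure D1:**
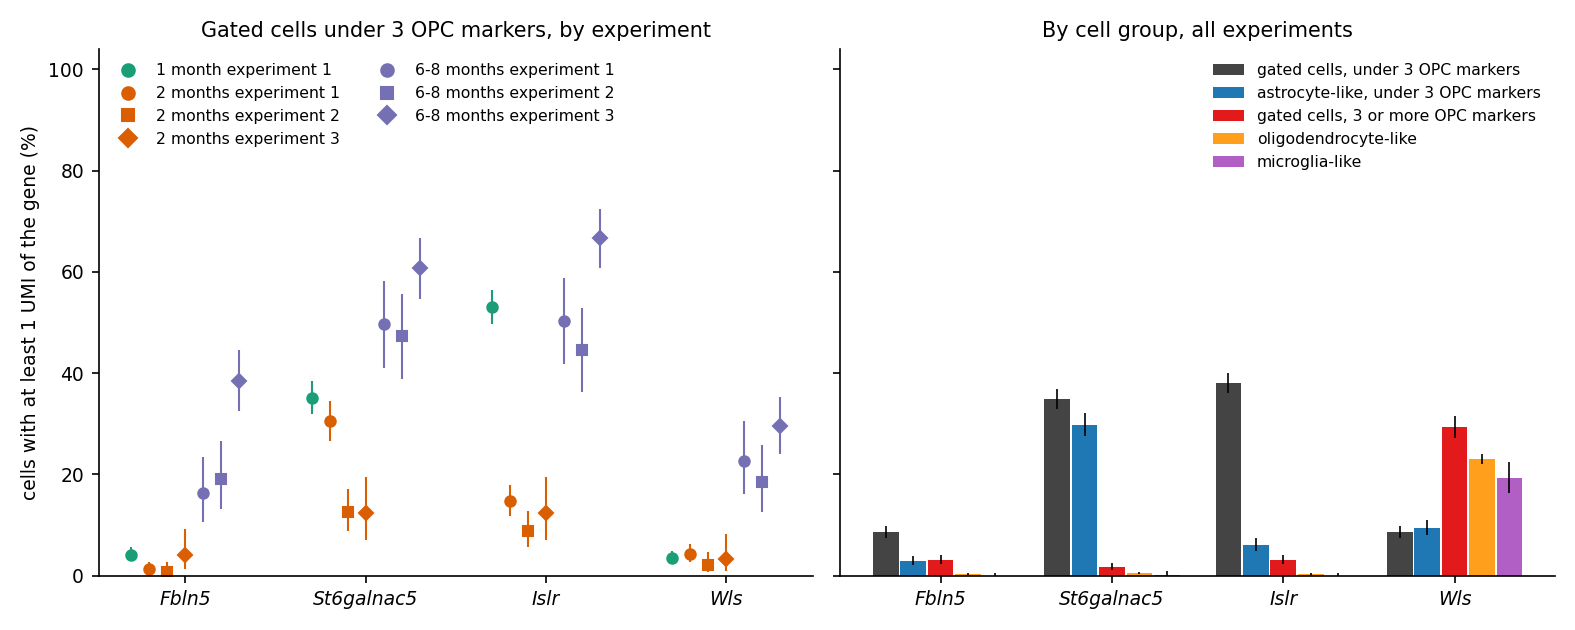
Share of cells, in percent, with at least 1 UMI of each of the 4 genes that chose the members, with 95% exact binomial intervals, in gated cells with under 3 OPC markers by experiment (left) and in 5 groups of cells over all experiments (right). Islr and St6galnac5 led in gated cells at 38.0% and 34.8%, and Wls was also detected in OPC-rich, oligodendrocyte-like and microglia-like cells.

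In members with under 3 OPC markers, the mean level over the 6 experiments with at least 5 such cells was 361 ± 144 CPM for Islr, 355 ± 157 CPM for St6galnac5, 83.6 ± 42.0 CPM for Fbln5 and 65.8 ± 44.2 CPM for Wls (SD). Islr and St6galnac5 thus overlapped in level, as did Fbln5 and Wls. Fbln5 was at 27.6 CPM at 1 month and at 110, 95.6 and 127 CPM at 6-8 months. At 2 months it was at 34.4 CPM in the first experiment, 0 in the second, and 106 CPM in the third, where that level was a single UMI. Wls was at 23.6 CPM at 1 month and at 114, 85.0 and 77.8 CPM at 6-8 months, and Islr at 276 CPM and then at 384, 255 and 276 CPM. These genes chose the members, so that their levels in members are a description. They are no second measure of a difference between ages. In astrocyte-like cells the mean levels were 20.9 CPM for Fbln5, 131 for St6galnac5, 41.9 for Islr and 53.9 for Wls.

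The label of quiescent neural stem cells was checked against markers that had no part in the rule. Members expressed Hopx, Thrsp and Vim, all stem cell genes, and Apoe, the lipid carrier of astroglia, at 25826 CPM. Lpar1, a lysophosphatidic acid receptor used as a stem cell marker, stood at 119 CPM in members, 72.6 CPM in cells with none of the genes and 15.9 CPM in astrocyte-like cells. S100b, which the gate used, was at 10.8 CPM in members and 525 CPM in astrocyte-like cells. Members therefore had the stem cell markers, but so did the cells with none of the genes, and over all experiments pooled Fbln5 was not found in most members. They are called here by their rule.

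**Figure D2:**
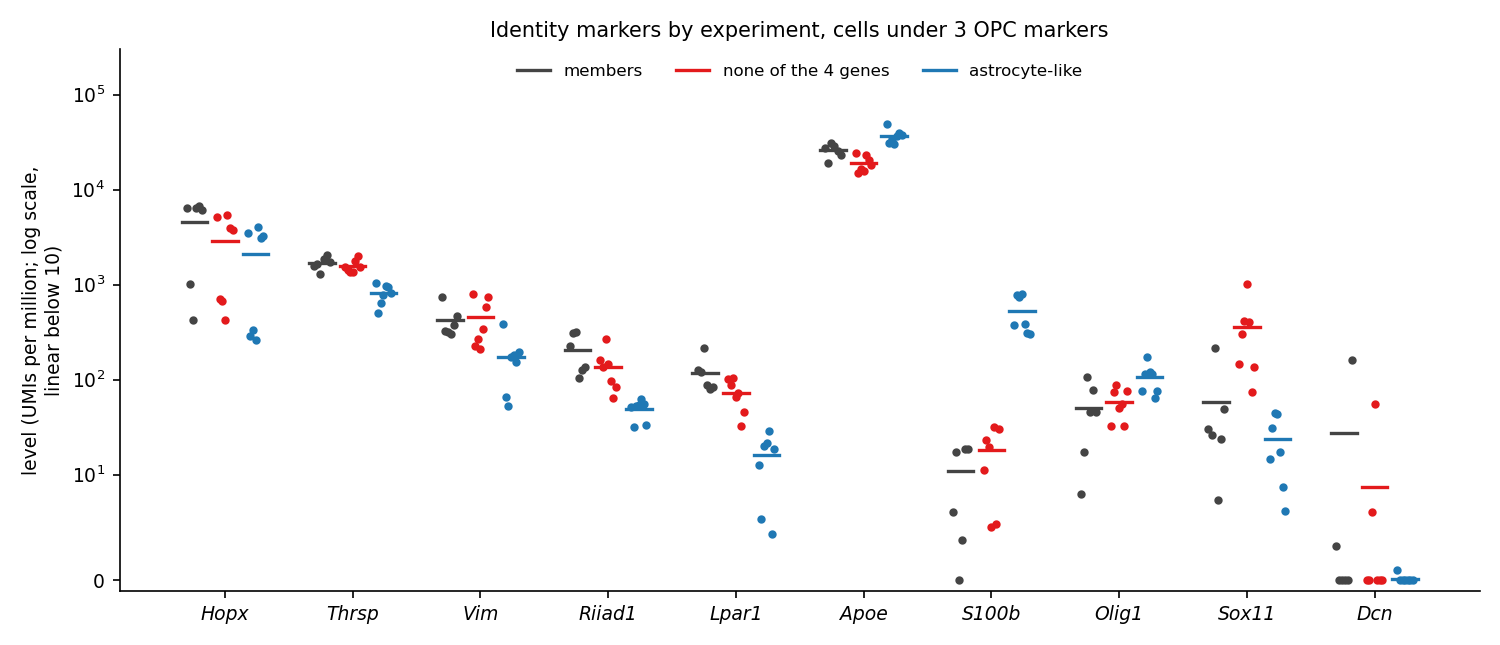
Levels in CPM (log axis, linear below 10) of stem cell, astrocyte, OPC, progenitor and fibroblast genes in members, cells with none of the genes and astrocyte-like cells under 3 OPC markers, with 1 point per experiment of at least 5 cells and bars at the means. Mean Lpar1 was 119 and 72.6 CPM in the first 2 groups and 15.9 CPM in astrocyte-like cells.

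Genes of other cell types were also read in members. Meningeal and vascular fibroblasts also express fibulins and Islr, and the 12 markers of these cells summed to 6.50 CPM in members at 1 month, 0, 125 and 0 CPM at 2 months, and 11.4, 2.65 and 322 CPM at 6-8 months. In the third experiment at 6-8 months Dcn, which encodes decorin, alone reached 162 CPM in members. In cells with none of the genes the same list summed to 1.41 CPM at 1 month and to 45.1 CPM in that experiment. The part of fibroblast RNA in the results was not tested. Without that experiment 60 genes were called higher and 168 lower between members and cells with none under 3 OPC markers, against 101 and 203 with it. The counts were 61 and 162 without the experiment at 1 month, and 57 and 164 without the first at 2 months. They were 107 and 177 without the third at 2 months, and 63 and 161 or 55 and 164 without the first or second at 6-8 months. No part of fibroblast RNA is read from these counts. The 22 markers of progenitors and neurons summed to 218 CPM in members and 784 CPM in cells with none at 1 month. At 2 months they summed to 112, 125 and 532 CPM in members against 1117, 1443 and 2739 CPM, and at 6-8 months to 110, 162 and 269 CPM against 1820, 315 and 691 CPM. Members were thus the lower group in every experiment by summed level. At least 3 of these markers were detected in 37 of 562 members (6.58%), and under 3 in 889 of 975 cells with none, so that by number of markers the groups lay closer. Key results are also given without such cells.

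The next question was whether members made up a different share of the cells at different ages. With under 3 OPC markers, members were 43.9% of members and none combined at 1 month, 11%, 1.87% and 5.38% at 2 months, and 63.8%, 61.0% and 86.5% at 6-8 months. This share leaves out the cells with exactly 1 gene: of all gated cells under 3 OPC markers, members were 23.7% at 1 month, 7.06%, 1.47% and 4.10% at 2 months, and 47.5%, 41.8% and 66.8% at 6-8 months. The 95% exact binomial intervals for the first kind of share, which cover counting error only, were 39.4 to 48.5% at 1 month, 0.512 to 4.72% for the lowest experiment at 2 months and 81.0 to 90.8% for the highest at 6-8 months. The ages 2 and 6-8 months did not overlap, and the means differed by 64.3 percentage points, or by 47.8 points of all gated cells under that limit. With 3 experiments against 3, the two-sided exact permutation test gave p = 0.1 for both, the smallest p it allows.

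Depth moved these shares strongly. After thinning every cell to 2000 UMIs and leaving out shallower cells, members were 9.03% at 1 month, 8.00%, 5.0% and 2.04% at 2 months, and 43.2%, 23.5% and 38.3% at 6-8 months. At 1000 UMIs they were 1.58% at 1 month, 1.40%, 0.581% and 2.04% at 2 months, and 13.2%, 6.73% and 11.9% at 6-8 months. Of all gated cells under 3 OPC markers, members after thinning to 2000 UMIs were 6.01% at 1 month, 5.60%, 4.08% and 1.75% at 2 months, and 28%, 14.7% and 23.7% at 6-8 months. At 2000 UMIs the share at 1 month lay near the highest at 2 months, and those at 6-8 months lay above both, but chemistry still differed between 1 and 2 months. Counted over all gated cells, thinning to 2000 UMIs left out 0 members and 11 cells with none at 1 month, 2, 2 and 3 members and 98, 186 and 65 cells with none in the experiments at 2 months, and 3 members and 21 cells with none in all at 6-8 months. With OPC-rich cells kept, members were, of members and none combined, 33.5% at 1 month, 10.0%, 1.75% and 3.73% at 2 months, and 53.2%, 16.4% and 27.9% at 6-8 months (difference 27.4 points, p = 0.1, exact permutation test), and after thinning to 2000 UMIs the difference was 10.2 points (p = 0.3). In the gate without OPC-rich cells, Fbln5 was detected in 4.10% of cells at 1 month, 1.30%, 0.735% and 4.10% at 2 months, and 16.3%, 19.2% and 38.4% at 6-8 months.

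**Figure D3:**
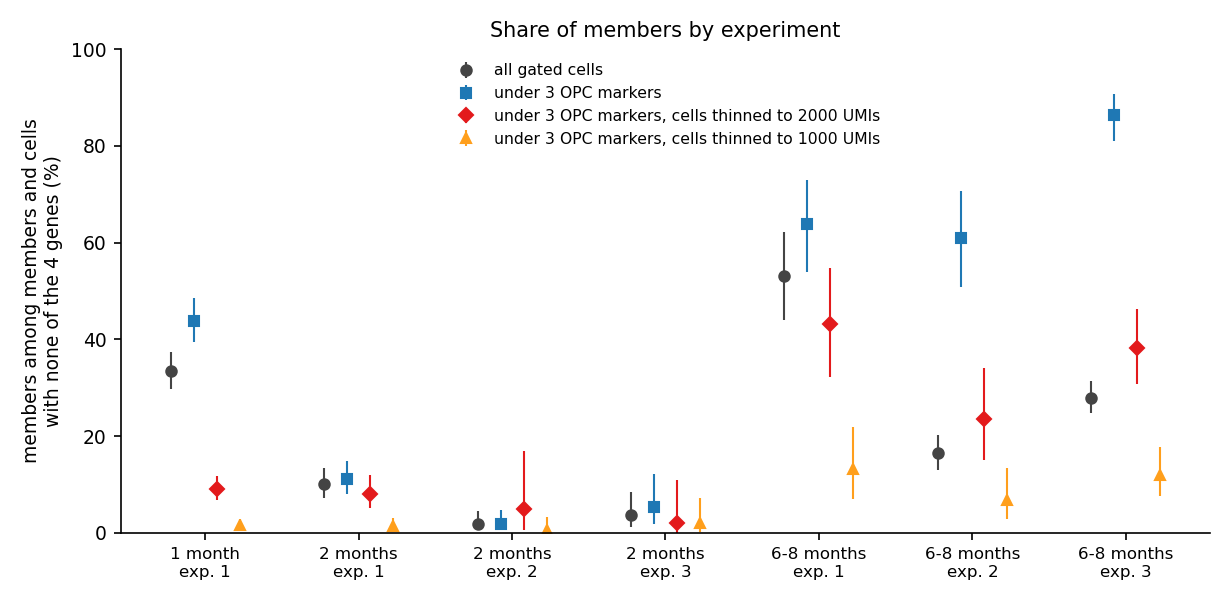
Share of members among members and cells with none of the genes, in percent, by experiment and with 95% exact binomial intervals, in all gated cells, under 3 OPC markers, and there after thinning to 2000 or 1000 UMIs. The share under 3 OPC markers at 1 month fell from 43.9% to 9.03% on thinning to 2000 UMIs. The experiments at 6-8 months fell to 43.2%, 23.5% and 38.3% at 2000 UMIs, and to 13.2%, 6.73% and 11.9% at 1000.

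Members with under 3 OPC markers were then compared with cells that had none of the genes, in the 6 experiments with at least 5 cells in each group. Higher in members were Chst2, a sulfotransferase, Cav1, the coat protein of caveolae, Lcat, which esterifies cholesterol, and Prnp, the prion protein. Lower were Sox11 and Sox4, Stmn1, which destabilizes microtubules, Ccnd2, a G1 cyclin, the actin-binding thymosins Tmsb4x and Tmsb10, and nearly all genes of ribosomal proteins. Of 3938 genes tested with edgeR's quasi-likelihood test (Benjamini-Hochberg adjusted p at 0.05), 101 were higher (2.56%) and 203 lower (5.15%). Among these, 63 higher and 143 lower genes moved in the same direction in all 6 experiments. The third experiment at 2 months held 5 members with 9401 UMIs in all, so that for weakly expressed genes its direction rests on few UMIs.

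Chst2 was at 324 CPM in members and 191 CPM in cells with none at 1 month, at 344 against 239 and 213 against 130 CPM at 2 months, and at 467 against 184, 552 against 176 and 447 against 158 CPM at 6-8 months. It was higher in members in 6 of 6 experiments, with the wider gaps at 6-8 months (log2 fold change 0.99 ± 0.12 SE, edgeR adjusted p = 4.83e-13). Cav1 was at 49.5 against 26.1 CPM at 1 month, 94.5 against 29.3 and 106 against 30.0 CPM at 2 months, and 60.8 against 16.0, 50.4 against 21.4 and 36.5 against 22.5 CPM at 6-8 months. The lowest member value lay above the highest value of the cells with none (log2 fold change 1.13 ± 0.25 SE, edgeR adjusted p = 2.5e-04). In the third experiment at 2 months there were only 5 members, and 1 UMI was worth 106 CPM.

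Lcat stood at 175 against 93.8 CPM at 1 month, 155 against 121 and 319 against 85.1 CPM at 2 months, and 160 against 63.9, 125 against 58.8 and 154 against 75.1 CPM at 6-8 months (log2 fold change 0.86, edgeR adjusted p = 5.67e-06). The groups did not overlap. Prnp was at 1022 against 721 CPM at 1 month, 1066 against 732 and 1170 against 491 CPM at 2 months, and 958 against 639, 892 against 428 and 939 against 496 CPM at 6-8 months (log2 fold change 0.67 ± 0.11 SE, edgeR adjusted p = 2.76e-07). Its groups did not overlap either, and its level in members ran only from 892 to 1170 CPM.

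The other named genes that were higher in members were Cd82, a tetraspanin (log2 fold change 0.71), Wipi1, a protein of autophagosome formation (0.67), Naaa, a lysosomal amidase (0.65), Nkain4, which binds the sodium pump (0.65), Riiad1 (0.64), Itih3, which links hyaluronan (0.61), Prelp, a leucine-rich proteoglycan (0.61), and Gpc5, a glypican (0.60). Their edgeR adjusted p ran from 2.08e-06 for Nkain4 to 0.0392 for Prelp.

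Sox11, a transcription factor of newborn neurons, was at 30.0 CPM in members and 146 CPM in cells with none at 1 month, at 25.8 against 304 and 213 against 1016 CPM at 2 months, and at 7.60 against 407, 23.9 against 74.8 and 49.4 against 135 CPM at 6-8 months. It was lower in members in each experiment (log2 fold change -2.48 ± 0.18 SE, edgeR adjusted p = 1.02e-38). Tmsb4x was at 893 against 1992 CPM at 1 month, 859 against 2907 and 851 against 4291 CPM at 2 months, and 680 against 3360, 1290 against 2308 and 787 against 1915 CPM at 6-8 months. Its groups did not overlap (log2 fold change -1.53 ± 0.11 SE, edgeR adjusted p = 8.75e-42). Tmsb10 was lower still by fold, at 110 against 408 CPM at 1 month and between 38.0 and 106 CPM in members against 203 and 1392 CPM in cells with none at the other ages (log2 fold change -2.34, edgeR adjusted p = 4.04e-62).

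Sox4 (log2 fold change -1.21), Jpt1 (-1.20), Stmn1 (-1.16), Ccnd2 (-1.15), Hnrnpa1, which binds RNA (-1.09), Hmgn2, a nucleosome-binding protein (-1.07), Ptp4a1, a phosphatase (-1.03), Rplp0, of the ribosomal stalk (-0.98), and Marcksl1, of the actin cytoskeleton (-0.94), completed the named genes lower in members. Their edgeR adjusted p was at most 5.19e-04. Huwe1, a ubiquitin ligase, did not pass the test (log2 fold change -0.09, edgeR adjusted p = 0.893).

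**Figure D4:**
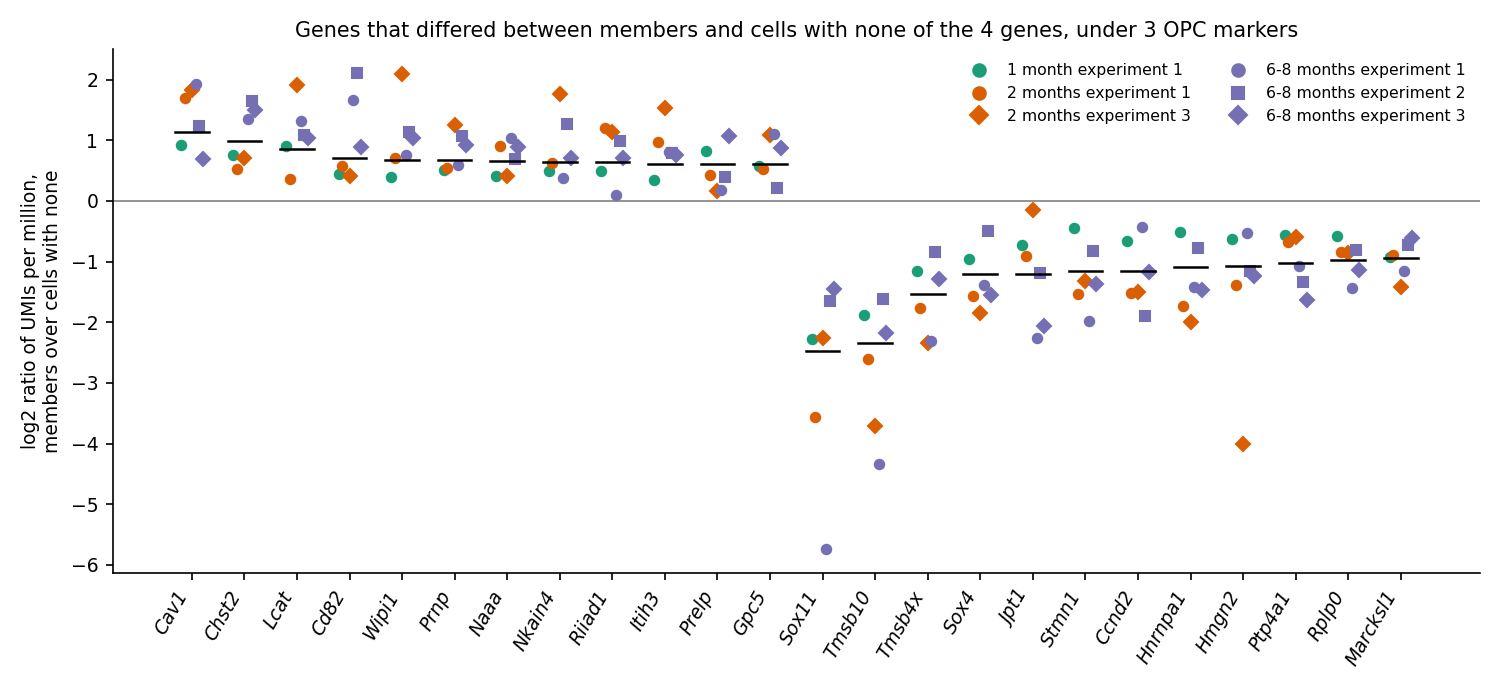
Log2 ratio of CPM between members and cells with none of the 4 genes, both with under 3 OPC markers, for the 12 named genes higher and the 12 lower in members, with 1 point per experiment and black lines at the fitted log2 fold change. All points of a gene lie on 1 side of the grey line at 0, and the fitted values run from 1.13 for Cav1 to -2.48 for Sox11.

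Cells with progenitor and neuron markers bore on several of these calls. When cells with at least 3 of the 22 progenitor and neuron markers were left out as well, 525 members and 889 cells with none remained, and of 3841 genes tested 24 were higher (0.625%) and 106 lower (2.76%). Of those calls, 23 of the 24 higher genes and all 106 lower genes were among the calls above. Chst2 (log2 fold change 0.89, edgeR adjusted p = 2.32e-09), Cav1 (1.07, 0.0024), Lcat (0.74, 1.88e-04) and Prnp (0.57, 1.49e-04) remained higher, as did Naaa, Nkain4, Itih3, Gpc5 and Riiad1 (0.48 to 0.54). Wipi1 (0.56, 0.0566), Cd82 (0.62, 0.131) and Prelp (0.49, 0.260) were no longer called. Tmsb4x (-0.98, 7.09e-14), Rplp0 (-0.82, 2.32e-09), Ccnd2, Hmgn2, Sox4, Marcksl1 and Hnrnpa1 (-0.80 to -0.48) remained lower. Stmn1 (-0.23, 0.468), Jpt1 (-0.55, 0.0628) and Tmsb10 (-0.62, 0.0602) were no longer called, and Sox11 and Ptp4a1 no longer passed the filter on detection. When cells with any lineage marker of the gate were left out instead, 38 of 3941 genes were higher (0.964%) and 107 lower (2.72%), of which 38 and 105 were among the calls above.

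With OPC-rich cells kept, the contrast was mainly one with OPCs. Of 5055 genes, 706 were higher in members (14.0%) and 694 lower (13.7%), and with total UMIs in place of TMM (trimmed mean) scaling these became 617 and 1223, as the median of all genes moved from -0.04 to -0.20. The lowest genes in members were genes of OPCs: Olig1, at a mean of 257 against 1969 CPM (log2 fold change -3.44, edgeR adjusted p = 1.20e-04), Olig2 (-3.38), Lhfpl3 (-3.55), Cntn1 (-3.42), Pdzrn4 (-3.58), Lrrn3 (-3.44), Clec2l (-3.41), Tac1 (-3.35), Cdo1 (-3.32), Fam19a1 (-3.30), Tmem163 (-3.24) and Nxph1 (-3.22). The named higher genes were Cd82 (2.70), Itih3 (2.68), Naaa (2.64), Pawr (2.57), Ifitm3 (2.55), Prelp (2.52), Itgb5 (2.39), Dkk3 (2.39), Ass1 (2.39), Riiad1 (2.39) and Paqr6 (2.37). Of the 101 higher and 203 lower genes found under 3 OPC markers, 72 and 33 were also called here.

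Gene groups were described by their counts beside all tested genes, whose median log2 fold change was -0.02 between members and cells with none under 3 OPC markers. Of 20 stem cell identity genes tested, 5 were higher and 1 lower, with a median of 0.01. Hopx was higher in 5 of 6 experiments, from 6435 against 5195 CPM at 1 month to 6159 against 3763 CPM in the third experiment at 6-8 months, and was equal at 425 and 426 CPM in the third experiment at 2 months (log2 fold change 0.46, edgeR adjusted p = 4.51e-04). Fabp7 (0.40), S100a6 (0.46) and Riiad1 were also higher, whereas Thrsp stood at 0.03 (adjusted p = 0.923). With OPC-rich cells kept, 15 of the 20 were higher and 1 lower, with a median of 1.48. Without progenitors 1 was higher, Riiad1, and 1 lower, so that Hopx was no longer called.

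Astrocyte markers outside the gate were higher in members for 10 of 32 genes and lower for 0, with a median of 0.28. They included Lcat, Kcnj10, a potassium channel (0.49), Pla2g7, a phospholipase (0.47), and Gpr37l1, a receptor (0.40). Without progenitors 1 was called higher. Of 37 genes of lipid metabolism 1 was higher and 0 lower, a share near that over all genes, with a median of 0.13. The gene was Apoe, at 27425 against 24017 CPM at 1 month and with a log2 fold change of 0.30 (edgeR adjusted p = 0.0253, higher in 6 of 6 experiments). On this list 0 were called without progenitors, or with Gm42418, AY036118 and mitochondrial genes left out of library sizes. With total UMIs or DESeq2 3 were higher, and with matched depth or the rule after thinning 2.

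Genes of the extracellular matrix and adhesion were higher in members for 8 of 31 genes and lower for 0, with a median of 0.23. Itih3 was at 197 against 155 CPM at 1 month and at 251 against 144, 231 against 134 and 395 against 233 CPM at 6-8 months. Gpc5, Timp4, an inhibitor of metalloproteinases (0.52), and Cspg5, a proteoglycan (0.43), rose with it. Without progenitors 3 were called higher. Only 2 genes of elastic fibers other than Fbln5 passed the filter, and neither was called. Fbln1 and Fbln2, its relatives, were near 9.35 and 8.55 CPM in members.

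Lysosomal genes were higher for 6 of 28 and lower for 0, with a median of 0.26. Psap, which encodes saposins, was at 622 against 545 CPM at 1 month and had a log2 fold change of 0.39, and Ctsl (0.40), Lamp1 (0.34) and Cst3 (0.32) were also called. With members and cells with none matched on UMIs 2 of 28 genes were called (median 0.30), with the rule applied after thinning to 2000 UMIs 0 of 27 (0.21), and without progenitors 0 of 28 (0.19), so that calls were lost while the medians stayed above 0.

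Immediate early and stress genes, which respond within minutes to stimulation or tissue dissociation, were lower for 8 of 19 and higher for 3, with a median of -0.34. Egr1 was at 52.8 against 74.8 CPM at 1 month, at 146 against 62.2 and 106 against 275 CPM at 2 months, and at 34.2 against 311, 159 against 289 and 156 against 428 CPM at 6-8 months (log2 fold change -1.03, edgeR adjusted p = 8.93e-09). Ier5 (-0.98) and Btg2 (-0.78) were also lower, while Cyr61 was higher (0.86). DESeq2 called 0 of them higher and 3 lower, and without progenitors 1 of 17 was higher and 3 were lower. With groups matched on depth 0 were higher and 11 of 18 lower, with a median of -0.50. The first experiment at 2 months went the other way for Egr1, and the ages are compared below.

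Signaling genes were called in small numbers. Of 14 genes of the Wnt pathway other than Wls, the secreted Wnt antagonists Frzb (0.62) and Dkk3 (0.56) were higher and 0 were lower. Of 16 genes of BMP, Id and Notch signaling, Hes6, which opposes Hes1 (-0.74), and Nbl1, a BMP antagonist (-0.56), were lower. Of 33 growth factor receptors and quiescence regulators 2 were higher and 8 lower, the latter including Sox11, Sox4, Ccnd2 and Nfix (-0.72). Of 13 genes of inflammation and interferon response, Ifi27 (0.57), Ifitm3 (0.59) and Ifnar2 (0.58) were higher. Without progenitors these counts were 1 higher of 14 for the Wnt pathway, 2 lower of 16 for BMP, Id and Notch signaling, 0 higher and 3 lower of 31 for growth factor receptors and quiescence regulators, and 1 higher of 13 for inflammation and interferon. None of 2 sialyltransferase and ganglioside genes was called, and their median was 0.34.

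Energy metabolism was nearly level. Of 72 nuclear genes of oxidative phosphorylation 1 was lower, with a median of -0.04, and of 13 mitochondrially encoded genes 0 were called, with a median of 0.02. None of 8 low-quality and nuclear-retained transcripts was called, with a median of -0.04. Of the marker lists of other cell types, 2 mural, 2 endothelial, 1 ependymal and 2 oligodendrocyte genes were tested and 0 called, and no fibroblast, microglia or OPC marker passed the filter on detection. Mitochondrial UMIs made up 0.936 ± 0.526 percentage points (SD) more in members than in cells with none among all gated cells (higher in 7 of 7 experiments, exact sign-flip test, p = 0.0156, the smallest it allows), but 0.216 points more under 3 OPC markers (6 of 7, exact p = 0.0625). The latter was 0.528 points with groups matched on depth (exact p = 0.0312) and -0.0439 points with the rule applied after thinning (exact p = 0.922), so that no direction is read from it. The number of genes per cell at 2000 UMIs was lower in members by a mean difference of -73.9 genes among all gated cells (6 of 7 experiments, exact p = 0.0312), and higher by 8.31 genes under 3 OPC markers (6 of 7, exact p = 0.0312), by 14.6 genes with groups matched on depth (exact p = 0.156) and by 16.0 genes with the rule applied after thinning (exact p = 0.0156).

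The cytosolic ribosomal proteins moved together. Of 84 such genes tested, all 84 had a negative log2 fold change in members, 76 were called lower and 0 higher, and the median was -0.63. Rplp0 was at 1101 against 1649 CPM at 1 month, 842 against 1505 and 1064 against 1938 CPM at 2 months, and 517 against 1397, 836 against 1469 and 703 against 1540 CPM at 6-8 months, without overlap. Rps3 (-0.86) and Rpsa (-0.94) behaved alike. With total UMIs in place of TMM scaling 74 of the genes were called lower, with DESeq2 74, with groups matched on depth 69, without progenitors 66 (median -0.51), and without any lineage marker 65 (-0.44). With OPC-rich cells kept, however, 1 was called lower and the median was -0.12.

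The same was seen per cell. In members with under 3 OPC markers, ribosomal protein genes took 6.24 ± 1.13% of a cell's UMIs on average (SD, n = 7 experiments), against 8.29 ± 0.876% in cells with none. The values were 7.11 against 8.61% at 1 month, 7.11 against 8.70%, 6.27 against 8.25% and 7.70 against 9.81% at 2 months, and 4.79 against 8.00%, 5.75 against 7.49% and 4.97 against 7.15% at 6-8 months. Members were lower in 7 of 7 experiments, and also in 7 of 7 with groups matched on depth and in 7 of 7 without progenitors.

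The ribosomal share was also read against the number of the 4 genes detected. It was 9.54 ± 0.98% of summed UMIs in cells with none of the genes (7 experiments), 7.57 ± 0.92% with exactly 1 (7 experiments), 6.56 ± 1.07% with exactly 2 (6 experiments) and 5.57 ± 1.43% with 3 or 4 (4 experiments). The classes with none and exactly 1 gene did not overlap within 1 SD, and the later neighbors did. No experiment at 2 months had 5 cells in the last class, and at 1 month the share was 7.32% with exactly 2 and 7.66% with 3 or 4 genes, so that the fall was not seen at every step. Across the edge of the rule, cells with exactly 2 (6 experiments) against exactly 1 gene (7 experiments) held on average 388 against 308 CPM of Chst2, 1002 against 772 CPM of Prnp, 63.4 against 36.3 CPM of Cav1, 1001 against 1654 CPM of Tmsb4x and 65.5 against 153 CPM of Sox11. Within the 4 experiments that had at least 5 cells with 3 or 4 genes, Cav1 was at 52.5 CPM in them against 49.2 CPM in cells with exactly 2 at 1 month, and at 96.4 against 37.6, 46.4 against 52.5 and 42.0 against 30.9 CPM at 6-8 months. Prnp was at 983 against 1027 CPM at 1 month, and at 954 against 960, 944 against 865 and 925 against 954 CPM at 6-8 months. Neither gene thus went one way in all 4 experiments.

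**Figure D5:**
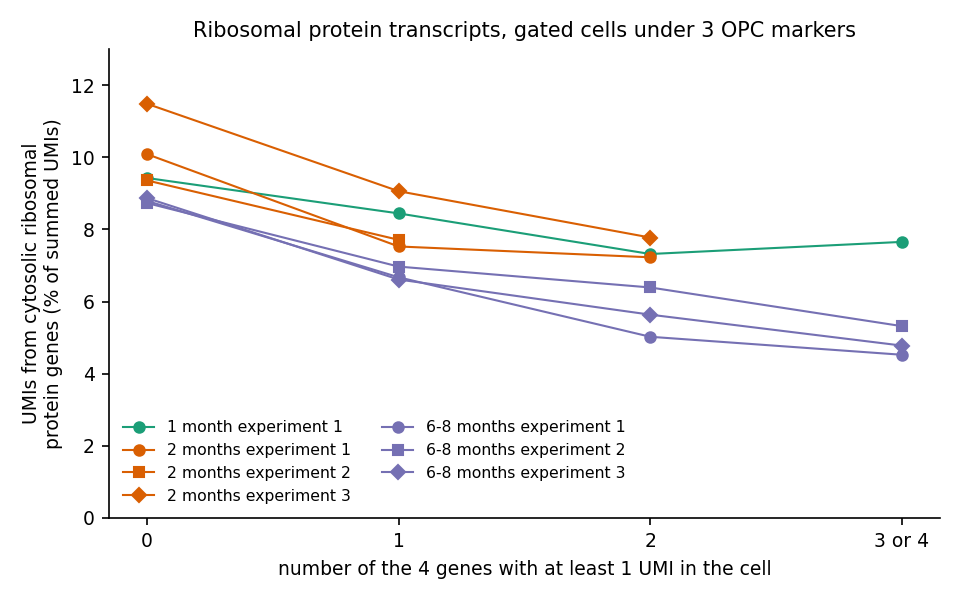
UMIs of ribosomal protein genes, in percent of summed UMIs, by the number of the 4 genes detected per cell, in gated cells under 3 OPC markers, with 1 line per experiment and points for classes of at least 5 cells. The lines fell from none of the genes to exactly 2 in each experiment shown, and the one at 1 month rose again with 3 or 4.

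Cells with exactly 1 gene, which are not members, were compared with cells that had none. Of 3046 genes 65 were higher (2.13%) and 122 lower (4.01%), and 49 of the former and 119 of the latter were among the calls for members. Both comparisons used the same cells with none, so that shared calls are in part built in. Ribosomal protein genes were lower for 67 of 83, with a median of -0.32, and lysosomal genes higher for 5 of 25.

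The reporter recorded which cells had been cycling when tamoxifen was given. A cell was counted as recombined by its UMIs for WPRE and the polyadenylation signal behind tdTomato against those of the intact cassette, with the study's thresholds. Under 3 OPC markers, 1 of 562 members (0.178%) and 30 of 975 cells with none (3.08%) were recombined. The counts were 1 of 208 against 6 of 266 at 1 month, 0 of 38 against 4 of 306, 0 of 4 against 5 of 210 and 0 of 5 against 9 of 88 at 2 months, and 0 of 67 against 2 of 38, 0 of 61 against 2 of 39 and 0 of 179 against 2 of 28 at 6-8 months. Members were lower in 7 of 7 experiments, by a mean of -4.75 ± 3.23 percentage points (SD, exact sign-flip test, p = 0.0156, the smallest it allows). In the first experiment at 2 months 37 of the 38 members came from the library labeled GFP+tdTomato-. A count of 0 of 4 or 0 of 5 carries little weight, and with groups matched on depth the difference was -2.82 points (exact p = 0.125). Without progenitors 0 of 525 members and 17 of 889 cells with none were recombined, a mean difference of -3.23 points (exact p = 0.0156).

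WPRE itself, read by its UMIs, was at 44.7 against 79.0 CPM at 1 month, 60.2 against 43.9 and 106 against 195 CPM at 2 months, and 64.6 against 120, 79.6 against 166 and 60.8 against 361 CPM at 6-8 months. WPRE was lower in members in 5 of 6 experiments (log2 fold change -1.34 ± 0.19 SE, edgeR adjusted p = 2.82e-10), but with OPC-rich cells kept it was not called (-0.12, adjusted p = 0.753). The gap was widest in the third experiment at 6-8 months, which had 28 cells with none. The SE and p rest on a spread that the fit shared across genes, not on that of WPRE alone. The eGFP transcript of Nestin-GFP differed by 0.01 (adjusted p = 0.984), or by 0.56 with OPC-rich cells kept (adjusted p = 0.0409), and the intact cassette by 0.15 (adjusted p = 0.504).

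Members were next set beside astrocyte-like cells, their nearest differentiated relatives, under 3 OPC markers. Members had more of the stem cell genes Lpar1, Hopx, Vim and Riiad1, more ribosomal protein RNA and less of nearly every astrocyte marker. The groups were split by S100b and the other mature astrocyte genes of the gate. Lower levels of genes expressed along with these thus follow in part from the choice of cells and are a description. Of 3991 genes tested, 639 were higher (16.0%) and 762 lower (19.1%). With total UMIs in place of TMM scaling these became 1175 and 561, as the median of all genes moved from 0.01 to 0.19, so that the balance between the directions depended on the scaling. Among cells with any number of OPC markers 534 of 4577 genes were higher (11.7%) and 614 lower (13.4%).

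Lpar1 was at 127 CPM in members and 12.6 CPM in astrocyte-like cells at 1 month, at 120 against 5.79 and 213 against 21.6 CPM at 2 months, and at 87.4 against 28.5, 79.6 against 4.4 and 84.3 against 18.4 CPM at 6-8 months. The groups lay far apart (log2 fold change 2.89 ± 0.25 SE, edgeR adjusted p = 2.45e-15). Hopxos, the transcript antisense to Hopx, rose most (3.00, adjusted p = 1.37e-18), and 1500015O10Rik (2.65), Tmem59l (2.54), Map1b, of the neuronal cytoskeleton (2.51), Riiad1 (1.91), Vim (1.04), Fabp7 (1.09), Hopx (0.86) and Thrsp (0.86) also rose. The reads of Hopxos and Hopx may be hard to separate where the genes overlap.

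eGFP stood at 1959 against 473 CPM at 1 month, 1048 against 100 and 2234 against 346 CPM at 2 months, and 859 against 313, 1080 against 205 and 655 against 166 CPM at 6-8 months (log2 fold change 2.08 ± 0.13 SE, edgeR adjusted p = 2.26e-20). Members thus had more Nestin-GFP RNA than astrocyte-like cells in each of the 6 experiments compared. The first at 2 months included the library labeled GFP+tdTomato+ and GFP-tdTomato-, and its astrocyte-like cells were not split by library. Among the genes lower in members, Igfbp2, a binding protein of insulin-like growth factors, was at 0 to 17.2 CPM in members against 70.4 to 272 CPM in astrocyte-like cells of the same 6 experiments. Kcnk1, a potassium channel, Atp13a4, Aldh1a1, of retinoic acid synthesis, and Pcdh7, a protocadherin, were likewise at or near 0 in members, so that their fitted folds have no fixed size.

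By groups, 33 of 37 astrocyte markers outside the gate were lower and 0 higher (median -1.45, all genes 0.01), a direction that the split between the groups favored. Of 20 stem cell identity genes 14 were higher and 2 lower (0.86), and 16 of 19 immediate early genes were higher and 0 lower (0.84). Ribosomal protein genes were higher for 75 of 84 (0.52) and for 80 with total UMIs, the opposite direction from the comparison with cells that had none. Lower in members were 30 of 39 genes of lipid metabolism (-0.70), with Apoe at -0.80, 48 of 72 genes of oxidative phosphorylation (-0.43), 18 of 32 genes of matrix and adhesion (-0.78) and 16 of 29 lysosomal genes (-0.36), with 1, 0, 6 and 1 genes of these lists higher. With total UMIs 27 lipid, 36 oxidative phosphorylation, 18 matrix and adhesion and 12 lysosomal genes were called lower and 1, 1, 7 and 2 higher. Lcat, Chst2 and Prnp, which were higher in members than in cells with none, were lower than in astrocyte-like cells (-1.45, -0.35 and -0.29), while Cav1 was higher than in either (0.61, adjusted p = 0.0306). Of 16 genes of BMP, Id and Notch signaling 8 were higher and 2 lower (0.25). The higher ones were the BMP pseudoreceptor Bambi (1.63), Nbl1 (1.03), the receptor Notch2 (0.88), its ligand Jag1 (0.58), the Notch targets Hes1 (0.34) and Hes5 (0.30), Hes6 (0.74) and Id1 (0.62), and the lower ones Id2 (-1.71) and Id3 (-1.47), like Id1 inhibitors of basic helix-loop-helix factors. Of 14 genes of the Wnt pathway 4 were higher and 3 lower (0.04), with the antagonists Sfrp1 (2.40) and Frzb (1.68) higher and the R-spondin receptor Lgr4 (-1.72) and the Wnt receptor Fzd2 (-0.92) lower.

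The ages could be compared in members with limited power. For 6-8 against 1 month, both with V3 chemistry, 3 experiments stood against 1. The fit took its spread from the experiments at 6-8 months and, as a further group, those at 2 months with V2 chemistry, and the single experiment at 1 month was assumed to vary like them. Under 3 OPC markers, of 4466 genes 54 were higher at 6-8 months (1.21%) and 28 lower (0.627%) by edgeR, whereas DESeq2 called 0 (86 genes at an unadjusted p under 0.05, against 394 for edgeR). The genes below were thus called by edgeR alone, and no spread between experiments was measured at 1 month. With all members 62 of 4764 genes were higher (1.3%) and 29 lower (0.609%).

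Id3 was at 442 CPM in members at 1 month and at 26.6, 119 and 93.2 CPM at 6-8 months (log2 fold change -2.39 ± 0.27 SE, edgeR adjusted p = 9.77e-15). Id1, its relative, was at 143 and then 41.8, 42.5 and 48.6 CPM (-1.67, adjusted p = 3.89e-05). Fxyd6, a regulator of the sodium pump, was at 125 and then 3.80, 5.31 and 18.6 CPM (-3.26, adjusted p = 3.74e-14). All 3 genes lay below the 1-month value in each experiment at 6-8 months, as did Cox4i2 (-2.45), Ifitm2 (-2.20) and A730017C20Rik (-1.98). Higher at 6-8 months were Syne1, a nuclear envelope protein, at 14.6 and then 72.2, 66.4 and 82.7 CPM (2.33, adjusted p = 3.89e-05), Gm8797 (2.60), Tsix (2.32) and Gpr37 (2.20). Tsix lies on the X chromosome, and the experiments pooled both sexes.

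Of 22 stem cell identity genes 4 were lower at 6-8 months than at 1 month and 0 higher (median -0.36): Tfap2c (-1.64), Fabp7 (-1.06), 1500015O10Rik (-0.95) and Vim (-0.94). Of 34 astrocyte markers 5 were higher and 0 lower (0.54), among them Cxcl14, a chemokine, at 119 and then 540, 422 and 365 CPM (1.86), and Slc4a4, a bicarbonate transporter, at 71.5 and then 236, 244 and 244 CPM (1.73). Of 19 immediate early genes 6 were higher (0.63), Junb among them, at 197 CPM at 1 month but 64.6, 1006 and 767 CPM at 6-8 months, which lay on both sides of it. Ribosomal protein genes were called in 0 of 84 cases with 79 negative (-0.47). eGFP was lower (-1.20, adjusted p = 6.91e-03), while Hopx (-0.02) and Apoe (-0.09) were not called.

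Whether the difference between members and cells with none itself changed from 2 to 6-8 months was tested as an interaction in 5 experiments. Under 3 OPC markers, of 4036 genes 0 were called higher (0.0%) and 4 lower (0.0991%) by edgeR, with 185 at an unadjusted p under 0.05. DESeq2 called 0, with 60 at an unadjusted p under 0.05. Of the 4 genes, 3 were on the list of immediate early and stress genes, Fos (-1.92, adjusted p = 4.51e-07), Btg2 (-1.81, 1.39e-03) and Jun (-1.39, 5.28e-03), and the other was Phlda1 (-2.32, 5.28e-03). Fos was at 1624 CPM in members against 511 CPM in cells with none in the first experiment at 2 months and at 2127 against 2073 CPM in the third. At 6-8 months it was at 331 against 974, 1646 against 2896 and 1715 against 3320 CPM. All 4 calls were lost without the first experiment at 2 months, where Fos stood at -0.38 (adjusted p = 0.676) and Jun at 0.02. Among all gated cells 252 of 5277 genes were called higher (4.78%) and 1 lower (0.019%), and 0 were called without either experiment at 2 months, of which the third held 5 members.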

How the data were processed

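The authors aligned reads and counted UMIs with Cell Ranger 3.0.2, with cutadapt 1.18 and Seurat also named in the submitters' processing notes, and deposited unnormalized UMI counts per gene and barcode for 8 libraries. Several mice were pooled per experiment, so an experiment is the replicate (n = 7). Doublets were not called here beyond the gate's limit on lineage markers. Counts were summed per experiment and cell group (at least 5 cells), genes detected in 20% of the cells of a group were kept, and groups were compared with edgeR 4.0.16 (quasi-likelihood test, TMM scaling, Benjamini-Hochberg adjustment at 0.05) in R 4.3.3, with experiment as a block, since both groups came from the same libraries. The 4 genes of the rule were left out of all fits. Single values were compared by exact sign-flip or permutation tests. The fits were tested on simulated counts under 3 OPC markers. In these, a gene's spread followed from its level alone, and experiments differed only in depth. The shares recovered thus do not cover genes whose own spread between experiments is wider. Between members and cells with none (3938 genes), 94.0% of genes changed by a log2 fold change of 1 were recovered, and 49.3% of those changed by 0.5. For 6-8 against 1 month, 29.9% of genes changed by 1 were recovered.

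For members against cells with none, the named genes were the 12 largest called changes in each direction that held in every experiment, up to 4 genes of each list, and Apoe, Huwe1, Hopx and the reporter elements. The other comparisons named the 5 largest in each direction, and the further genes named there, from the lists or as markers, were chosen after their values were seen. A few genes that the rule names are not reported here. The members and gene lists were chosen with earlier results of these data known. Alternatives were total-count scaling, DESeq2 1.42.0, no filter on detection, no block, other limits of the gate, leaving out each rule gene or experiment, matched depth and thinning to 2000 UMIs. Cells are not replicates. The exact tests measure the spread between experiments. The edgeR fits share that spread across genes, almost fully for members against cells with none under 3 OPC markers. Their p-values there do not measure each gene's own spread between experiments.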

Additional observations from a re-analysis of the deposited data

Results flagged for a closer look

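In 5 of 37 groups of per-experiment values 1 experiment lay apart from the rest, where chance gives about 5% of groups. The first experiment at 6-8 months had the widest gap in ribosomal protein UMIs between members and cells with none under 3 OPC markers, at -3.21 percentage points against -2.17 to -1.50 in the other experiments. The third experiment at 2 months, which held 5 members, stood apart for Wipi1 (a log2 ratio of 2.34 between members and cells with none, against 0.39 to 1.09) and Hmgn2 (-3.42, against -1.36 to -0.53). It also stood apart for Kcnk1 (-1.23 between members and astrocyte-like cells, against -6.76 to -4.89) and Atp13a4 (-0.16, against -5.96 to -4.55), both at 0 UMIs in its members.

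Between 2 and 6-8 months, the difference between members and cells with none changed under 3 OPC markers for Fos (-1.92 on the log2 scale, edgeR adjusted p = 4.51e-07), Phlda1 (-2.32), Btg2 (-1.81) and Jun (-1.39), and these rest on the first experiment at 2 months. Among all gated cells it changed for Atl2 (10.7), Zic2 (5.45), Prodh (5.14), Tmem218 (5.04), Slco1c1 (4.79) and Phlda1 (-2.42). Atl2 was at 0 UMIs in members of all 3 experiments at 2 months, so that its size is a fitted value only.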

How the results depend on the processing

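Of the alternatives tried for members against cells with none under 3 OPC markers (304 genes called), the fit with no replicate block called 56 (3 higher, 53 lower), the rule without Islr 195, the comparison without progenitors 130, and leaving out single experiments 219 to 284. Named genes there kept direction and call in 876 cases, lost the call in 256 and changed direction in 9. The changes of direction were of uncalled genes: eGFP from -0.0959 to 0.116 without single experiments (below 0 without the first at 2 months or the second at 6-8 months), at -0.0527 with no replicate block, -0.120 without Islr in the rule, -0.00951 without Wls, -0.0352 with the rule after thinning, -0.0482 with at least 3 genes and -0.133 without progenitors, and Huwe1 at 0.16 with matched depth.

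Among all gated cells 1400 genes were called, but 3073 with no filter on detection, 406 with no replicate block, 145 without lineage markers, 920 with an astrocyte limit of 0.05%, 905 without Islr in the rule, 304 under 3 OPC markers, and 758 to 1595 without single experiments (758 and 796 without experiments 2 and 3 at 6-8 months). WPRE ran from -0.374 to 0.0423 without single experiments, above 0 without the one at 1 month, and was at 0.0327 without Wls in the rule, and Huwe1 (-0.14) and eGFP (-0.12) turned without lineage markers. Against astrocyte-like cells 1148 genes were called, 2890 with no filter and 658 to 1634 without single experiments, and under 3 OPC markers 1401, or 1106 to 1437. For the interaction of age the 253 calls became 163 with total UMIs, 14 with DESeq2, 398 with no filter, 64 with matched depth, 4 under 3 OPC markers and 0 to 461 without single experiments. Those 4 became 0 with DESeq2 and 2 to 7 without single experiments, with Jun at -1.91 to 0.0155, above 0 without the first at 2 months. For 6-8 against 1 month the 91 calls became 0 with DESeq2, 162 with no filter and 18 to 90 without single experiments, and under 3 OPC markers the 82 became 0 with DESeq2 and 28 to 94. Leaving out the only experiment at 1 month left no such comparison.

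The mitochondrial difference of 0.936 points was 0.669 with the rule after thinning, 0.839 with at least 3 genes, 0.133 without lineage markers, 0.216 under 3 OPC markers and 0.185 without progenitors (0.804 to 1.06 without single experiments). The difference in genes per cell of -73.9 ran from -87.2 to -59.8 without single experiments, was -59.5 with the rule after thinning and -108 with at least 3 genes, and turned to 19.4 without lineage markers, 8.31 under 3 OPC markers and 12.2 without progenitors. The recombined share of -4.75 points was -2.82 with matched depth and -5.32 to -3.83 without single experiments, and the difference in the share of members of 27.4 points ran from 17.0 to 35.4. The causes of these changes were not tested, beyond the lower number of cells or genes that a setting leaves.

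Depth limits the rule itself, since a gene that a shallow cell does not show counts as not detected, above all at 2 months. In simulated data the interaction of age recovered 51.5% of genes changed by a log2 fold change of 2. Pooled mice, 1 experiment at 1 month and the chemistry at 2 months limit every statement on age.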
